A study of Mus musculus with 6 samples.

Results

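The 38 genes described here form the lysosome and TFEB network, a list of lysosomal membrane proteins, acid proteases, glycosidases, lipid-handling proteins, V-ATPase subunits and autophagy genes, with the transcription factors Tfeb and Tfe3. They were taken by name, not by their values, and where a gene has several probe sets it is given by the brightest of them, taken as the mean log2 signal of all 6 arrays. A probe set was found for 37 of the 38, out of 18193 genes on the array, and Cd63 was not analysed here. The roles were covered by 2 transcription factors, 6 membrane proteins, 9 proteases, 6 glycosidases, 5 lipid-handling proteins and cofactors, 4 V-ATPase subunits and 5 autophagy genes.

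RNA came from CD4 T cells of C57BL/6 mice aged 10 to 11 weeks, and was read on 6 Affymetrix arrays, 1 for each of 3 cell populations in each of 2 genotypes. The Furin cKO mice carried CD4 cre with Fur flox/flox, so that Cre driven by Cd4 acts in T cells, and the control mice carried Fur flox/flox without Cre. Both genotypes therefore carry the floxed allele. Activated cells were sorted as naive (CD4+ CD62L+ CD44-) and then kept for 2 days on plates coated with 5 µg/ml anti-CD3 and 5 µg/ml anti-CD28, whereas memory cells (CD4+ CD62L- CD44+) and regulatory cells (CD4+ CD25+ FoxP3+) went into RNA extraction freshly sorted. The labels do not say how many mice gave each RNA or whether populations came from the same mice, and the number of arrays limits the precision of every value below.

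Lysosomes are acidic organelles in which proteases, glycosidases and lipases break down material delivered by endocytosis and by autophagy, and the V-ATPase pumps in the protons that keep them acidic. TFEB and TFE3 are related transcription factors that bind the CLEAR element, an E-box found near many lysosomal genes, and they are held in the cytoplasm while the kinase complex mTORC1 is active on the lysosomal surface. In T cells lysosomal proteases also take part in the maturation of granule enzymes, and in antigen-presenting cells cathepsin S and legumain cut proteins for display on MHC class II. Furin is a convertase that cleaves precursor proteins in the secretory pathway.

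Promoters were examined for the letters of the CLEAR element. Of the 37 genes, 31 were in the RefSeq promoter table (GRCm38.p6), with 38 promoters of 250 bases before and 50 bases after an annotated start site. The 6-letter E-box CACGTG, which reads the same on both strands, was in a promoter of 12 of the 31 genes (38.7%), against 8.09% of all 27025 genes in the table. Its 7-letter extension TCACGTG, searched on both strands and overlapping the first motif, was in 11 genes (35.5%), against 4.29% of all genes. The 8-letter palindrome TCACGTGA, which overlaps both, was in 7 genes (22.6%), against 1.12% of all genes. The 7 genes were Atp6v0d1, Atp6v1a, Cln3, Ctsa, Ctsd, Gla and Mcoln1. Because the genes were listed as a TFEB network, these shares are not independent of that choice, and no enrichment was tested.

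The promoters of the first 3 of these genes in alphabetical order follow, to show where the element lies, with every CACGTG and its flanking T or A in capitals, and then the most upstream of the 3 Tfeb promoters, none of which held CACGTG.
Atp6v0d1, chr8:105566015-105566314, minus strand: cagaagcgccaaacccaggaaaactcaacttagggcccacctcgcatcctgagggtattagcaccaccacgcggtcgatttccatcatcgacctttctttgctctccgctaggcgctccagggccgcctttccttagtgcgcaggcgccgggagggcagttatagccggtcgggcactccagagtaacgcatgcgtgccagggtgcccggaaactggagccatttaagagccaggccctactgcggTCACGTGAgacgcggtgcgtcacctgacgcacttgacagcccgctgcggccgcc
Atp6v1a, chr16:44139210-44139509, minus strand: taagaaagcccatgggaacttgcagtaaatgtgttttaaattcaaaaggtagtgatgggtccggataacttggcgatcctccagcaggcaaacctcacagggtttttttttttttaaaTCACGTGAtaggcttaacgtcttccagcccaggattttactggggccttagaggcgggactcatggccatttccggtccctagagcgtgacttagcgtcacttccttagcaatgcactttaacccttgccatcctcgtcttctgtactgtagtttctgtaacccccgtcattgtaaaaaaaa
Cln3, chr7:126583187-126583486, minus strand: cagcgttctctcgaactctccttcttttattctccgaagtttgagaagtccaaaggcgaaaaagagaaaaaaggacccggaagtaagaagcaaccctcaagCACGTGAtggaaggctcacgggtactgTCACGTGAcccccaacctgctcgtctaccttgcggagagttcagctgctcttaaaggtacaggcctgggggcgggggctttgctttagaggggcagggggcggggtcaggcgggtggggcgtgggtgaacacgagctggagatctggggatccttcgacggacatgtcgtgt
Tfeb, chr17:47736787-47737086, plus strand: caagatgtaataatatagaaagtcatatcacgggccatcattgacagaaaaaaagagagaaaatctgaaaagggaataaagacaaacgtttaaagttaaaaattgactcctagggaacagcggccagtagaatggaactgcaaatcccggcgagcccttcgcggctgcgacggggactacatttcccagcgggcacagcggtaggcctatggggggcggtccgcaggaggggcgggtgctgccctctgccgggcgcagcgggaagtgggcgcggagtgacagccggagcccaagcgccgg

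In Atp6v0d1 the core CACGTG began 3 bases before the start site, in Atp6v1a it began 131 bases before it, and Cln3 held one core 149 bases and another 121 bases before it. The other 4 genes with the palindrome are shown by their sites alone, with up to 10 bases on either side of the core and the palindrome in capitals.
Ctsa, chr2:164833751-164833776, plus strand: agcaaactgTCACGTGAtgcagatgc
Ctsa, chr2:164833768-164833793, plus strand: tgcagatgcTCACGTGAccagagcta
Ctsd, chr7:142387910-142387935, minus strand: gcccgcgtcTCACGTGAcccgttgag
Gla, chrX:134601217-134601242, minus strand: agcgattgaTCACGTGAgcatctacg
Gla, chrX:134601184-134601209, minus strand: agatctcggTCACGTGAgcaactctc
Mcoln1, chr8:3500464-3500489, plus strand: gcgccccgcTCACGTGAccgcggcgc

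Lamp1 held 4 copies of CACGTG between 61 and 15 bases before its start site, each with a T before it or an A after it but not both. In all, 20 sites lay in the promoters of the 12 genes, and 6 of these genes had several sites. A match is a match of letters, and no binding was measured.

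The labels were checked against marker genes before the comparisons. Signals are MAS5 intensities on a linear scale, and any signal below 47.6, the 40th percentile over the pooled arrays, was raised to that value, called the floor here. Foxp3, which defines regulatory T cells, read 11.9 in activated, 1116 in memory and 33.8 in regulatory cells on the arrays labelled Furin cKO, and 27 in activated, 1358 in memory and 50.4 in regulatory cells on the control arrays. On the regulatory arrays it was below the floor on one array and just above it on the other, and it was high on the memory arrays, against the label. Ikzf2, another marker of regulatory cells, did not follow Foxp3 and read 15968 on the regulatory array labelled Furin cKO and 13901 on the regulatory control array, against 8213 and 9419 on the memory arrays labelled Furin cKO and control. Il2ra, Tnfrsf18 and Nrp1 were also highest on both regulatory arrays. Ctla4, of the same marker list, was not: its regulatory signals, 10619.1 (Furin cKO) and 11033.1 (control), lay between the 2 activated ones. Those were 10316.5 (Furin cKO) and 11924.6 (control), and the memory arrays read 2934 (Furin cKO) and 3339.9 (control). Furin, the deleted gene, read 468 in activated, 2203 in memory and 410 in regulatory cells on the arrays labelled Furin cKO, and 516 in activated, 647 in memory and 547 in regulatory cells on the control arrays. On the arrays labelled Furin cKO it was slightly lower in activated cells (log2 fold -0.14) and in regulatory cells (log2 fold -0.42). In memory cells it was 3.4-fold higher, against the label. No array labelled Furin cKO read Furin at least 2-fold below its control, so the signal showed no clear loss of Furin in any population. Whether the probe set lies in the deleted part of the gene was not tested. Comparisons below therefore name the arrays by their labels, and the counts of network genes called between populations are also given with each array left out.

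The arrays differed in quality measures by population. Between 49.4% and 49.8% of probe sets were above the floor on the activated arrays, against 62.5% to 67.4% on the other 4 arrays. The ratio of the 3' to the 5' probe set of beta-actin was 1.22 to 1.24 on activated, 1.35 to 1.36 on regulatory, and 1.56 (Furin cKO) and 1.93 (control) on memory arrays. The spiked-in BioB control read 758 (Furin cKO) and 656 (control) on activated, 2974 (Furin cKO) and 4145 (control) on memory, and 1809 (Furin cKO) and 2123 (control) on regulatory arrays. Dendritic cell markers were highest on the memory arrays, where 10 of them summed to 30498 on the array labelled Furin cKO and 62419 on the control array, against 7409 (Furin cKO) and 7506 (control) in regulatory cells. Population and array handling cannot be told apart, since each population holds its own 2 arrays.

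**Figure D1:**
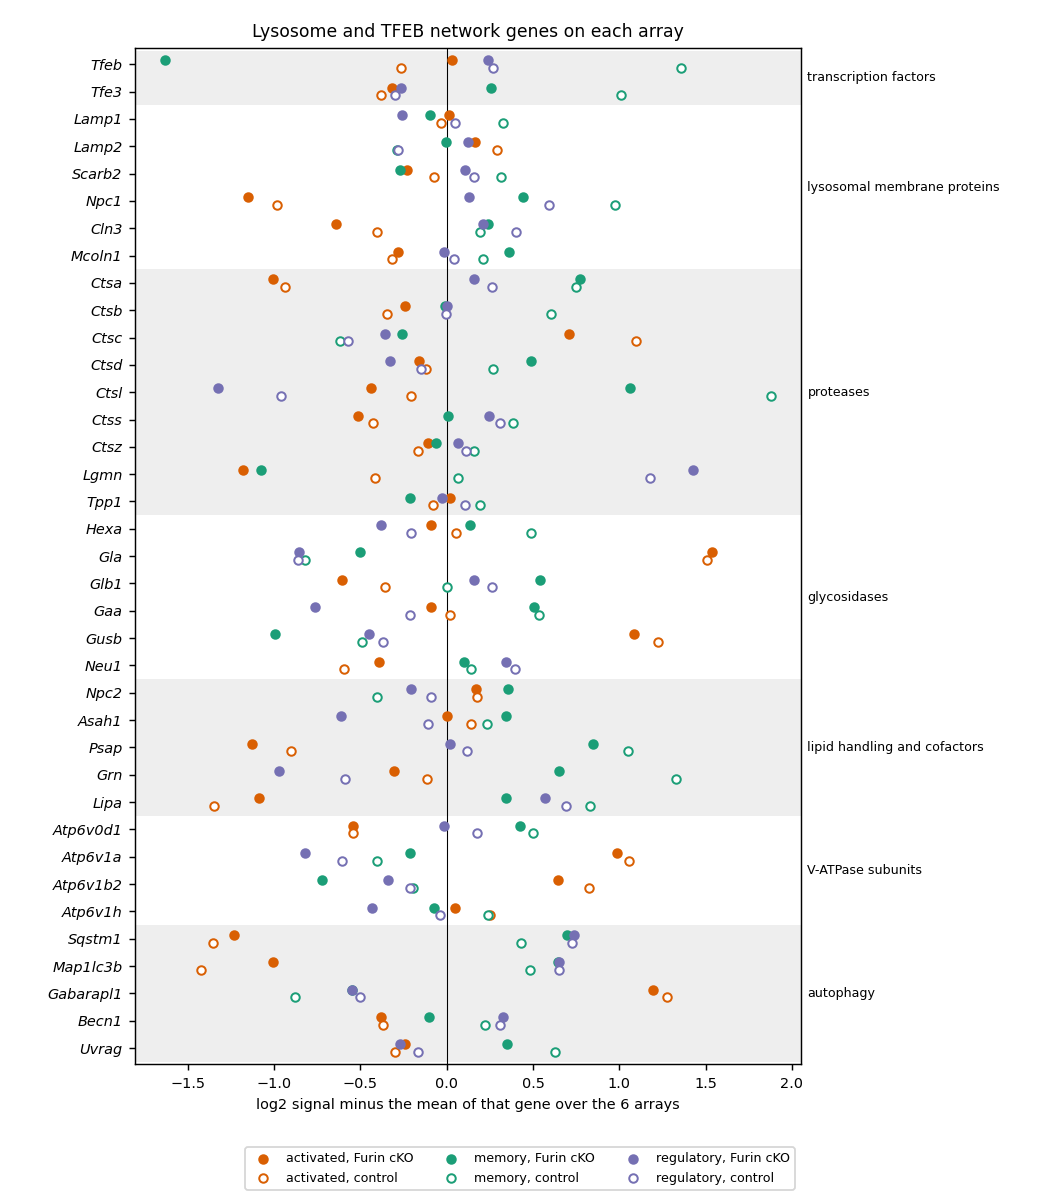
Log2 signal of the 37 genes on the 6 arrays, drawn for each gene as the difference from its own mean over the arrays (x axis), with genes grouped by role (y axis). Filled points are arrays labelled Furin cKO and open points control arrays. Tfeb on the memory arrays, at 37.4 (Furin cKO) against 377 (control), is the widest gap between genotypes. For Gla and Gusb both activated points stand right of that gene's other 4 points.

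Most differences in the network lay between populations. Activated cells were called higher than memory cells in 6 genes, led by the alpha-galactosidase Gla, the autophagosome protein Gabarapl1 and the beta-glucuronidase Gusb, and lower in 15, led by the saposin precursor Psap and the autophagy receptor Sqstm1. Against regulatory cells the same 5 genes, Gla, Gabarapl1, Gusb, Psap and Sqstm1, were called in the same directions. By the mean log2 signal of 2 arrays, the activated population was highest for 9 genes (24.3%), memory for 16 (43.2%) and regulatory for 12 (32.4%). Over all 15707 genes above the floor on some array these shares were 27.4%, 36.6% and 36.1%. The activated population was lowest for 20 genes (54.1%), the memory population for 5 (13.5%) and the regulatory population for 12 (32.4%). Over all 15707 genes the activated population was lowest for 64.2%, memory for 16.5% and regulatory for 19.3%. The 6 arrays were fitted with limma, using 1 term for the population and 1 for the genotype, with Benjamini-Hochberg adjustment over those 15707 genes and a call at an adjusted p under 0.05. With 1 array per group the model has 2 residual degrees of freedom, and what it takes as error is the change of the genotype difference from population to population, since no animals are repeated. Differences below are log2 differences ± SE from this model. Fewer cells of a type and less RNA per cell cannot be told apart in such bulk RNA.

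Activated cells differed from memory cells in 21 of the 37 genes, of which 6 were called higher and 15 lower. Over all genes 17.5% were called higher and 27.2% lower in this comparison, against 16.2% higher and 40.5% lower of the network. The median log2 difference was -0.52 for the network and -0.21 for all genes. Of the 37 differences 27 were below 0, against 10141 of all 15707 genes. Activated against regulatory cells gave 7 genes higher and 12 lower, with 18.3% of all genes called higher and 26.9% lower, and medians of -0.07 for the network and -0.22 for all genes. Under quantile and cyclic loess normalization the median of all genes was 0 in both comparisons, and the share of calls that were higher over all genes moved to 51.5% and 52.5% (activated over memory, 39.2% as reported) and to 55.3% and 56.4% (activated over regulatory, 40.5% as reported). Both comparisons use the activated arrays, so their values stand side by side and are not independent. The 10 dendritic cell markers summed to 1487 (Furin cKO) and 1460 (control) on activated arrays, and 8 of them were called lower there than in memory cells. Their part in the differences of the network was not tested.

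Of the 2 transcription factors, Tfe3 was called lower in activated than in memory cells and Tfeb was not called. Tfeb read 150.5 in activated, 37.4 in memory and 174 in regulatory cells on the arrays labelled Furin cKO, and 123 in activated, 377 in memory and 177 in regulatory cells on the control arrays. One memory value lay below and the other above all 4 other values, and none of its population differences was called, the one between activated and memory cells being 0.02 ± 0.88. Without the memory array labelled Furin cKO the sign turned, to a difference of -1.54 that rests on the memory control array alone. That array is then assumed to vary like the others. The memory array labelled Furin cKO read below both activated arrays, so the sign of this difference depends on which memory array is kept. Tfe3, its relative, read 502 in activated, 749.9 in memory and 520.5 in regulatory cells on the arrays labelled Furin cKO, and 481 in activated, 1260.5 in memory and 509 in regulatory cells on the control arrays. Tfe3 was lower in activated than in memory cells, with a difference of -0.98 ± 0.26 (adjusted p = 0.0393), a call that was kept under 5 of 13 alternatives and lost under quantile and cyclic loess normalization. It was not called against regulatory cells at -0.07 ± 0.26 (adjusted p = 0.898).

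Among the 6 membrane proteins, 3 were called lower in activated than in memory cells, and 2 of these were also called lower in activated than in regulatory cells. Npc1, which exports cholesterol across the lysosomal membrane, read 179.8 in activated, 542 in memory and 438 in regulatory cells on the arrays labelled Furin cKO, and 202 in activated, 784 in memory and 603 in regulatory cells on the control arrays. All its activated signals lay below all others, and the difference was -1.78 ± 0.16 (adjusted p = 0.00284) from memory and -1.43 ± 0.16 (adjusted p = 0.00463) from regulatory cells. Cln3, a membrane protein mutated in Batten disease, read 592 in activated, 1090.3 in memory and 1071 in regulatory cells on the arrays labelled Furin cKO, and 699.7 in activated, 1056.5 in memory and 1220.2 in regulatory cells on the control arrays. It differed by -0.74 ± 0.15 (adjusted p = 0.0204) from memory and -0.83 ± 0.15 (adjusted p = 0.015) from regulatory cells, and its 2 activated values were again the lowest of the 6. Mcoln1, the calcium-releasing channel TRPML1, was called lower in activated than in memory cells at -0.58 ± 0.14 (adjusted p = 0.0326), a call kept under 3 of 13 alternatives, but another of its probe sets went the other way at 0.42. The abundant membrane glycoproteins Lamp1 and Lamp2 and the enzyme transporter Scarb2 were not called in either comparison, with differences from memory cells of -0.13, 0.37 and -0.18. Lamp1 read 5669 in activated, 5249.7 in memory and 4687.5 in regulatory cells on the arrays labelled Furin cKO, and 5476.5 in activated, 7043.5 in memory and 5809.7 in regulatory cells on the control arrays, and its ranges overlapped between all populations. Over the 6 arrays Lamp2 ranged between 1153 and 1719, Scarb2 between 1415.5 and 2122 and Mcoln1 between 417 and 665.

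The 9 proteases went in both directions. Ctsa, the carboxypeptidase that protects lysosomal galactosidase and sialidase, read 1423.5 in activated, 4895 in memory and 3198 in regulatory cells on the arrays labelled Furin cKO, and 1493 in activated, 4815 in memory and 3431 in regulatory cells on the control arrays. It was lower in activated cells at -1.74 ± 0.14 (adjusted p = 0.00226) against memory and -1.18 ± 0.14 (adjusted p = 0.0048) against regulatory cells, with no overlap between the populations. Ctsl, the cysteine protease cathepsin L, read 519.6 in activated, 1467 in memory and 280.4 in regulatory cells on the arrays labelled Furin cKO, and 608.5 in activated, 2583 in memory and 361 in regulatory cells on the control arrays. Here the memory arrays were the highest and the regulatory arrays the lowest, so that activated cells were lower than memory cells, at -1.79 ± 0.20 (adjusted p = 0.00416), and higher than regulatory cells, at 0.82 ± 0.20 (adjusted p = 0.0319). Ctss, cathepsin S, read 8044.5 in activated, 11506 in memory and 13564 in regulatory cells on the arrays labelled Furin cKO, and 8511 in activated, 14937 in memory and 14223 in regulatory cells on the control arrays. Its activated values were the lowest of the 6, at -0.66 ± 0.16 (adjusted p = 0.0301) against memory and -0.75 ± 0.16 (adjusted p = 0.0218) against regulatory cells.

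Ctsc, the dipeptidyl peptidase that activates granule serine proteases, was the protease called higher in activated cells in both comparisons. It read 8079.9 in activated, 4148 in memory and 3866 in regulatory cells on the arrays labelled Furin cKO, and 10586 in activated, 3229 in memory and 3335 in regulatory cells on the control arrays. The differences were 1.34 ± 0.23 (adjusted p = 0.0127) from memory and 1.36 ± 0.23 (adjusted p = 0.0123) from regulatory cells, while its 2 dimmer probe sets, near the floor, went the other way at -0.64 and -0.25 against memory cells. Lgmn, the asparagine-specific protease legumain, read 149.7 in activated, 161 in memory and 911.5 in regulatory cells on the arrays labelled Furin cKO, and 254 in activated, 355.5 in memory and 767 in regulatory cells on the control arrays. Its regulatory values were the highest, and activated cells were lower than regulatory cells at -2.10 ± 0.37 (adjusted p = 0.0134). Ctsb, Ctsd, Ctsz and Tpp1 were called in neither comparison, with differences from memory cells between -0.59 (Ctsb) and -0.02 (Tpp1). Ctsb, a cysteine protease, ranged between 5534 and 10715 over the 6 arrays, and Ctsd, an aspartic protease, between 2851 and 5006. Ctsz, a carboxypeptidase, ranged between 4999.5 and 6237, and Tpp1, a tripeptidyl peptidase, between 2461 and 3257.

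Of the 6 glycosidases, Gla and Gusb were higher in activated cells and Neu1 was lower, in both comparisons. Gla, the alpha-galactosidase deficient in Fabry disease, read 952.5 in activated, 232 in memory and 181 in regulatory cells on the arrays labelled Furin cKO, and 934 in activated, 185.5 in memory and 180.3 in regulatory cells on the control arrays. Its 2 activated signals stood far above the other 4, and the difference was 2.19 ± 0.16 (adjusted p = 0.00195) from memory and 2.38 ± 0.16 (adjusted p = 0.00196) from regulatory cells. Gla is one of the 7 genes whose promoter held the TCACGTGA palindrome, with both copies shown above. Gusb, beta-glucuronidase, read 3452 in activated, 816 in memory and 1193 in regulatory cells on the arrays labelled Furin cKO, and 3808 in activated, 1157 in memory and 1261 in regulatory cells on the control arrays. It was higher by 1.90 ± 0.17 (adjusted p = 0.00281) and 1.56 ± 0.17 (adjusted p = 0.00434) against memory and regulatory cells, but its second probe set gave -0.12 and -0.42. Neu1, the lysosomal sialidase, read 612 and 532 on the activated arrays labelled Furin cKO and control, and between 861 and 1057 on the other 4. The differences were -0.61 ± 0.15 (adjusted p = 0.033) and -0.86 ± 0.15 (adjusted p = 0.0131). Hexa, a subunit of beta-hexosaminidase, Glb1, the lysosomal beta-galactosidase, and Gaa, the acid glucosidase that degrades glycogen, were not called. Over the 6 arrays Hexa ranged between 1737 and 3176, Glb1 between 496 and 1097 and Gaa between 281 and 693.

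Of the 5 lipid-handling genes and cofactors, 3 were called lower in activated than in memory cells and 0 higher, with a median log2 difference of -1.20. Psap, the precursor of the saposins that present lipids to their hydrolases, read 2547 in activated, 10003 in memory and 5649.8 in regulatory cells on the arrays labelled Furin cKO, and 2978.5 in activated, 11513 in memory and 6040.5 in regulatory cells on the control arrays. The 3 populations did not overlap, and activated cells were lower at -1.96 ± 0.14 (adjusted p = 0.00187) against memory and -1.08 ± 0.14 (adjusted p = 0.00585) against regulatory cells. Lipa, lysosomal acid lipase, read 619.8 in activated, 1671 in memory and 1956 in regulatory cells on the arrays labelled Furin cKO, and 519 in activated, 2346 in memory and 2131 in regulatory cells on the control arrays. It was lower in activated cells at -1.80 ± 0.22 (adjusted p = 0.00532) and -1.85 ± 0.22 (adjusted p = 0.00523) against memory and regulatory cells. Grn, progranulin, the precursor of the granulins, read 2786 in activated, 5396 in memory and 1756 in regulatory cells on the arrays labelled Furin cKO, and 3169.8 in activated, 8634 in memory and 2281 in regulatory cells on the control arrays. Activated cells were below memory cells at -1.20 ± 0.18 (adjusted p = 0.00838) and above regulatory cells at 0.57 without a call (adjusted p = 0.0632). Npc2, the soluble partner of Npc1 in cholesterol export, and Asah1, acid ceramidase, were not called, at 0.19 and -0.22 against memory cells. Npc2 ranged between 10670.2 and 18084 and Asah1 between 1287 and 2493 over the 6 arrays.

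The 4 V-ATPase subunits were called in both directions. Atp6v1a and Atp6v1b2, which belong to the catalytic V1 sector, were higher in activated cells, and Atp6v0d1, of the membrane V0 sector, was lower. Atp6v1a read 3490.2 in activated, 1514 in memory and 994 in regulatory cells on the arrays labelled Furin cKO, and 3656 in activated, 1331 in memory and 1157 in regulatory cells on the control arrays. The 2 activated signals were the highest of the 6, at 1.33 ± 0.17 (adjusted p = 0.00543) against memory and 1.74 ± 0.17 (adjusted p = 0.00324) against regulatory cells, and its second probe set gave 1.32 against memory cells. Atp6v1b2 read 3194 in activated, 1238 in memory and 1614 in regulatory cells on the arrays labelled Furin cKO, and 3619.8 in activated, 1786 in memory and 1767 in regulatory cells on the control arrays. It was called higher at 1.19 ± 0.17 (adjusted p = 0.00742) and 1.01 ± 0.17 (adjusted p = 0.0118), but a second, dimmer probe set gave -0.59 and -0.85, and with the mean of its probe sets the difference from regulatory cells turned to -0.12. Atp6v0d1 read 1653 in activated, 3220.1 in memory and 2381 in regulatory cells on the arrays labelled Furin cKO, and 1651 in activated, 3392.5 in memory and 2717 in regulatory cells on the control arrays. Its activated values were the lowest, at -1.001 ± 0.14 (adjusted p = 0.00738) and -0.62 ± 0.14 (adjusted p = 0.0268) against memory and regulatory cells. Atp6v1h, also of V1, was not called, at 0.07 and 0.38, and ranged between 1849.9 and 2965 over the 6 arrays. Atp6v1a and Atp6v0d1 went opposite ways, and both promoters shown above held TCACGTGA.

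Of the 5 autophagy genes 1 was called higher and 3 lower in each comparison. Sqstm1, the cargo receptor p62, read 1182 in activated, 4488 in memory and 4617 in regulatory cells on the arrays labelled Furin cKO, and 1083 in activated, 3730.4 in memory and 4587 in regulatory cells on the control arrays. The activated signals lay below all others, at -1.85 ± 0.15 (adjusted p = 0.00227) against memory and -2.02 ± 0.15 (adjusted p = 0.00218) against regulatory cells. Gabarapl1, one of the ubiquitin-like proteins that coat autophagosomes, read 1974.5 in activated, 589 in memory and 589.9 in regulatory cells on the arrays labelled Furin cKO, and 2089.7 in activated, 468 in memory and 607 in regulatory cells on the control arrays. It was higher in activated cells by 1.95 ± 0.17 (adjusted p = 0.00265) and 1.76 ± 0.17 (adjusted p = 0.00338), and both of its probe sets went this way. Map1lc3b, which encodes the related LC3B, read 2785.5 in activated, 8729 in memory and 8767 in regulatory cells on the arrays labelled Furin cKO, and 2088 in activated, 7804 in memory and 8784 in regulatory cells on the control arrays. It was called lower in activated cells at -1.77 ± 0.17 (adjusted p = 0.00298) and -1.86 ± 0.17 (adjusted p = 0.00289), with a second probe set at -1.51 against memory cells and another, read at 4093 and 4242 on the activated arrays labelled Furin cKO and control, at 0.33. Becn1, part of the lipid kinase complex that starts autophagosomes, was called lower against regulatory cells at -0.69 ± 0.16 (adjusted p = 0.0289) and not against memory cells at -0.43 ± 0.16 (adjusted p = 0.0992). Its partner Uvrag was called lower against memory cells at -0.76 ± 0.16 (adjusted p = 0.0203) and not against regulatory cells at -0.05 ± 0.16 (adjusted p = 0.854). The difference between regulatory and memory cells itself was called for neither gene, at 0.26 ± 0.16 (adjusted p = 0.433) for Becn1 and -0.71 ± 0.16 (adjusted p = 0.116) for Uvrag. Over the 6 arrays Becn1 ranged between 2961 and 4840.4 and Uvrag between 1189 and 2266.

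**Figure D2:**
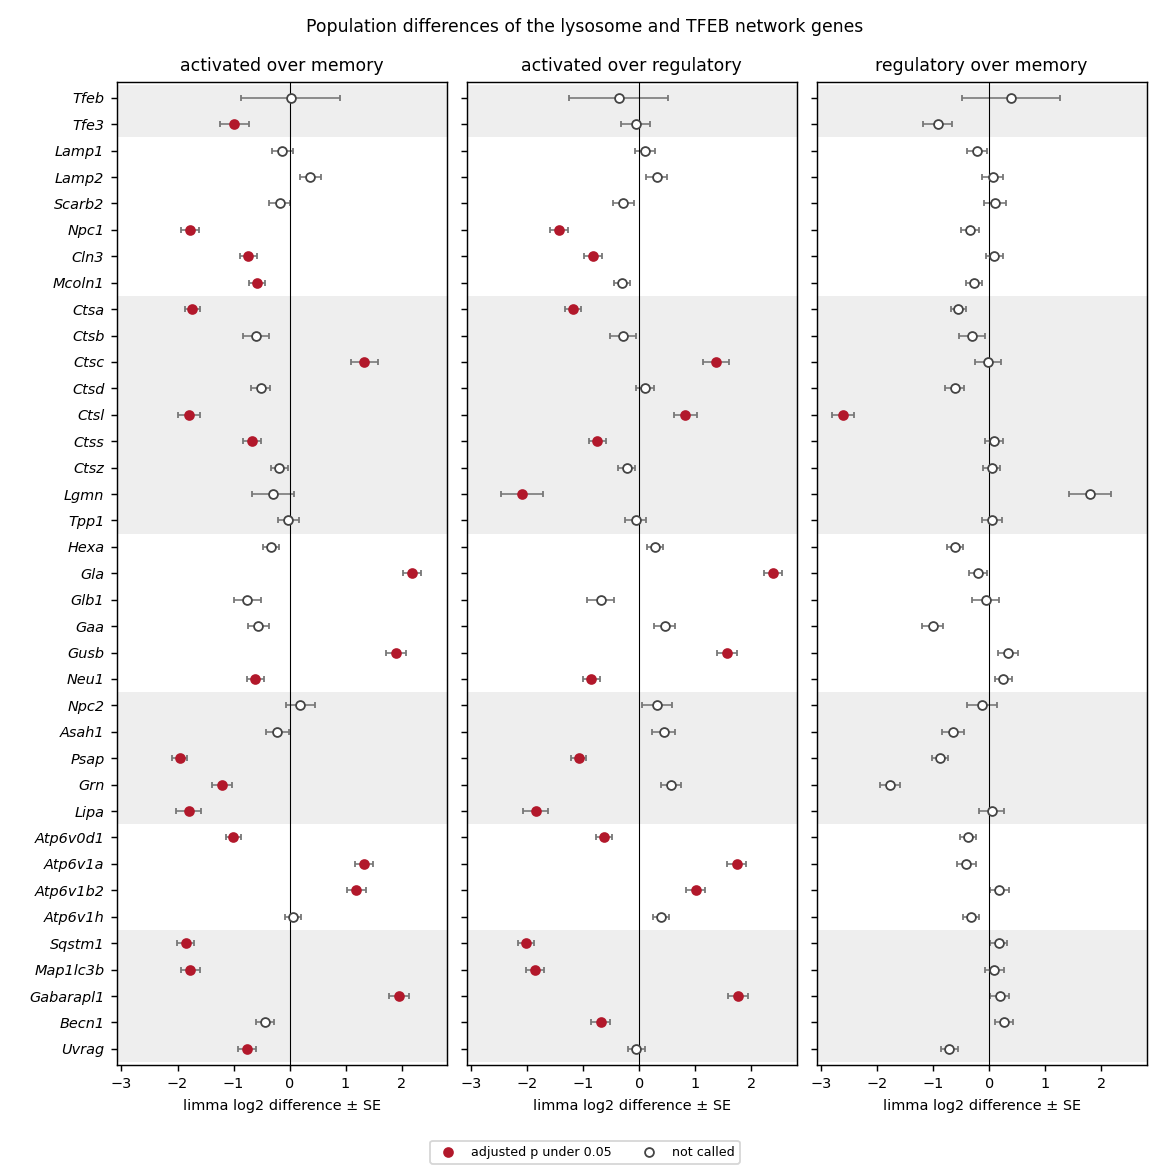
Limma log2 difference ± SE (x axis) of the 37 genes (y axis) for activated over memory, activated over regulatory and regulatory over memory cells, with called genes in red and others open. Gla, Gabarapl1 and Gusb lie furthest to the right in the first panel, at 2.19, 1.95 and 1.90, and Psap and Sqstm1 furthest to the left, at -1.96 and -1.85.

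Of the 37 genes, 24 had several probe sets above the floor and 81 probe sets were read in all. Of the 21 genes called between activated and memory cells, 15 had several, and in 5 of these (Mcoln1, Ctsc, Gusb, Atp6v1b2 and Map1lc3b) at least 1 of the others had a difference of opposite sign. For Psap, Grn and Lipa the other probe sets kept the direction, that of Ctsl, below or near the floor on every array, was at -0.07, and those of Grn were further from 0, at -3.11 and -2.89. The used probe sets of Grn, Gaa, Mcoln1, Lipa, Gabarapl1 and Becn1 are of kinds that can also match other transcripts.

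**Figure D3:**
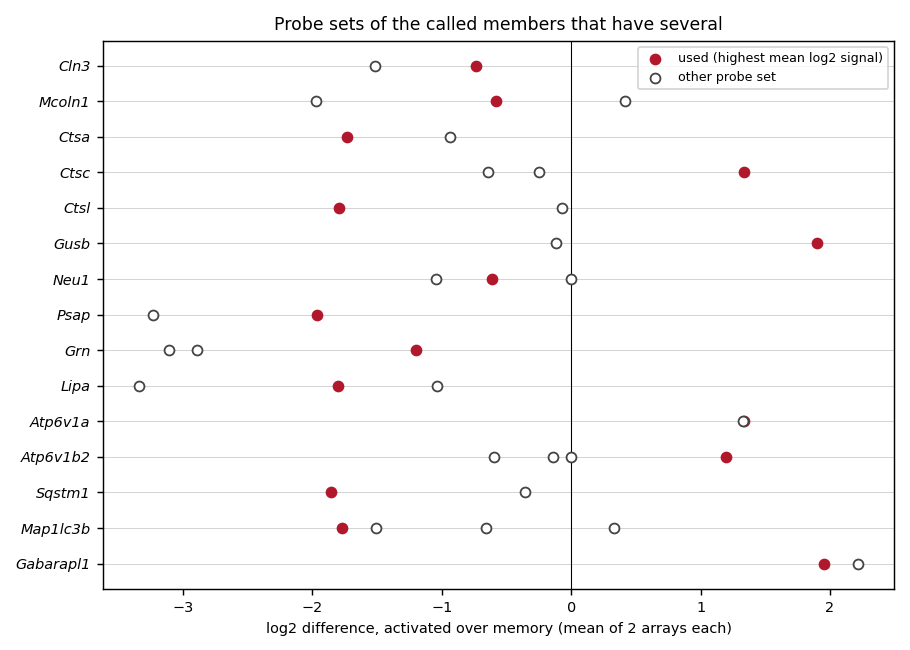
Log2 difference, activated over memory (x axis, mean of 2 arrays each), of every probe set above the floor for the called genes that have several (y axis), with the probe set used in red and others open. For Gusb, Ctsc and Atp6v1b2 the red point lies right of 0, at 1.90, 1.34 and 1.19, and the open points lie at or left of 0.

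How far the calls rested on single arrays was examined by leaving out each array in turn. Activated over memory gave between 2 and 5 genes higher and between 5 and 12 lower of the 37. Without the memory array labelled Furin cKO there were 5 higher and 12 lower, and without the memory control array 5 higher and 7 lower. Gla, Gusb, Psap and Sqstm1 were called in the same direction under all 13 alternatives. The calls kept under the fewest were those of Mcoln1 (3 of 13), Neu1 (4), Ctss (5) and Tfe3 (5). Activated over regulatory gave 0 calls among the 37 genes and 0 among all genes when either regulatory array was left out. At an unadjusted p under 0.05 limma then had 15 of the 37 and 6129 genes in all without the array labelled Furin cKO, and 18 of the 37 and 6316 in all without the control array.

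Regulatory and memory cells differed in 1 of the 37 genes. Ctsl was lower in regulatory cells at -2.61 ± 0.20 (adjusted p = 0.0485), and was called under 2 of 13 alternatives. Over all genes 0.0127% were called higher and 0.248% lower, and at an unadjusted p under 0.05 there were 3354 genes in all, 11 of them in the network. Grn, at -1.77 ± 0.18 (adjusted p = 0.0623), and Lgmn, at 1.81 ± 0.37 (adjusted p = 0.105), did not pass, although the ranges of the 2 populations did not overlap for either gene. Leaving out any 1 array gave 0 calls with limma in this comparison, with 7 to 18 of the 37 and 2114 to 3594 genes at an unadjusted p under 0.05. The memory arrays that carried the high Ctsl and Grn signals also carried the high dendritic cell markers given above, and the part of those cells in the difference was not tested.

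The genotype comparison sets the array labelled Furin cKO against the control array within each population. With 1 array a group no p-value can be given, and a fold of at least 2 is used only to describe. No gene of the network reached 2-fold in activated cells or in regulatory cells. In memory cells 2 of the 37 were at least 2-fold lower on the array labelled Furin cKO and 0 were higher. Over all genes measured, the shares at least 2-fold higher and lower were 0.362% and 0.353% in activated, 5.52% and 3.56% in memory, and 3.05% and 2.06% in regulatory cells.

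Activated cells gave nearly level signals. Of the 37 genes 14 read higher and 23 lower on the array labelled Furin cKO, 34 lay within 1.25-fold, and the median log2 fold was -0.07, against -0.005 for all genes. The largest difference was in Lgmn, at 149.7 on the array labelled Furin cKO and 254 on the control array, a log2 fold of -0.76. Map1lc3b read 2785.5 on the array labelled Furin cKO and 2088 on the control array (log2 fold 0.42). Ctsc read 8079.9 on the array labelled Furin cKO and 10586 on the control array (log2 fold -0.39). Regulatory cells gave 8 genes higher and 29 lower, with 30 within 1.25-fold and a median log2 fold of -0.10, against -0.02 for all genes.

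In regulatory cells the folds furthest from 0 were those of Gaa, Asah1, Npc1 and Lamp2. Gaa read 281 on the array labelled Furin cKO and 413 on the control array (log2 fold -0.55). Asah1 read 1287 on the array labelled Furin cKO and 1819 on the control array (log2 fold -0.50). Npc1 read 438 on the array labelled Furin cKO and 603 on the control array (log2 fold -0.46). Lamp2 was the gene furthest in the other direction, at 1529 on the array labelled Furin cKO and 1157 on the control array (log2 fold 0.40).

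In memory cells the 2 transcription factors Tfeb and Tfe3 and the proteases Lgmn and Ctsl read furthest below the control on the array labelled Furin cKO, and Npc2 and Glb1 furthest above it. There were 14 genes higher and 23 lower on the array labelled Furin cKO, with 17 within 1.25-fold and a median log2 fold of -0.22, against -0.01 for all genes. Tfeb read 37.4 on the array labelled Furin cKO and 377 on the control array, and since the first is below the floor the signal was at least 7.91-fold lower. Tfe3 read 749.9 on the array labelled Furin cKO and 1260.5 on the control array, which is 1.68-fold lower. Tfeb had 1 probe set and no second reading, and it read 174 and 177 on the regulatory arrays labelled Furin cKO and control. Both transcription factors were thus lower on that memory array, while in the other populations they lay within 1.25-fold.

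Among the memory proteases, Lgmn read 161 on the array labelled Furin cKO and 355.5 on the control array, 2.21-fold lower. Ctsl read 1467 on the array labelled Furin cKO and 2583 on the control array, 1.76-fold lower, and Ctsb read 6983 on the array labelled Furin cKO and 10715 on the control array, 1.53-fold lower. The other cysteine cathepsins gave log2 folds of -0.38 (Ctss), -0.22 (Ctsz) and 0.36 (Ctsc), so the cysteine proteases lay on both sides of 0. Ctsb had another probe set that gave a log2 fold of 0.03. Grn read 5396 on the array labelled Furin cKO and 8634 on the control array, 1.6-fold lower, and its other 2 probe sets gave log2 folds of -1.30 and -1.13. Scarb2 read 1415.5 on the array labelled Furin cKO and 2122 on the control array and Npc1 read 542 on the array labelled Furin cKO and 784 on the control array, 1.5-fold and 1.45-fold lower. The genes that went the other way were led by Npc2, at 18084 on the array labelled Furin cKO and 10670.2 on the control array (1.69-fold higher), and Glb1, at 1097 on the array labelled Furin cKO and 754 on the control array (1.46-fold higher). Npc2's second bright probe set gave a log2 fold of 0.35. Of the 24 genes with several probe sets in memory cells, 12 had at least 1 whose fold had the opposite sign.

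**Figure D4:**
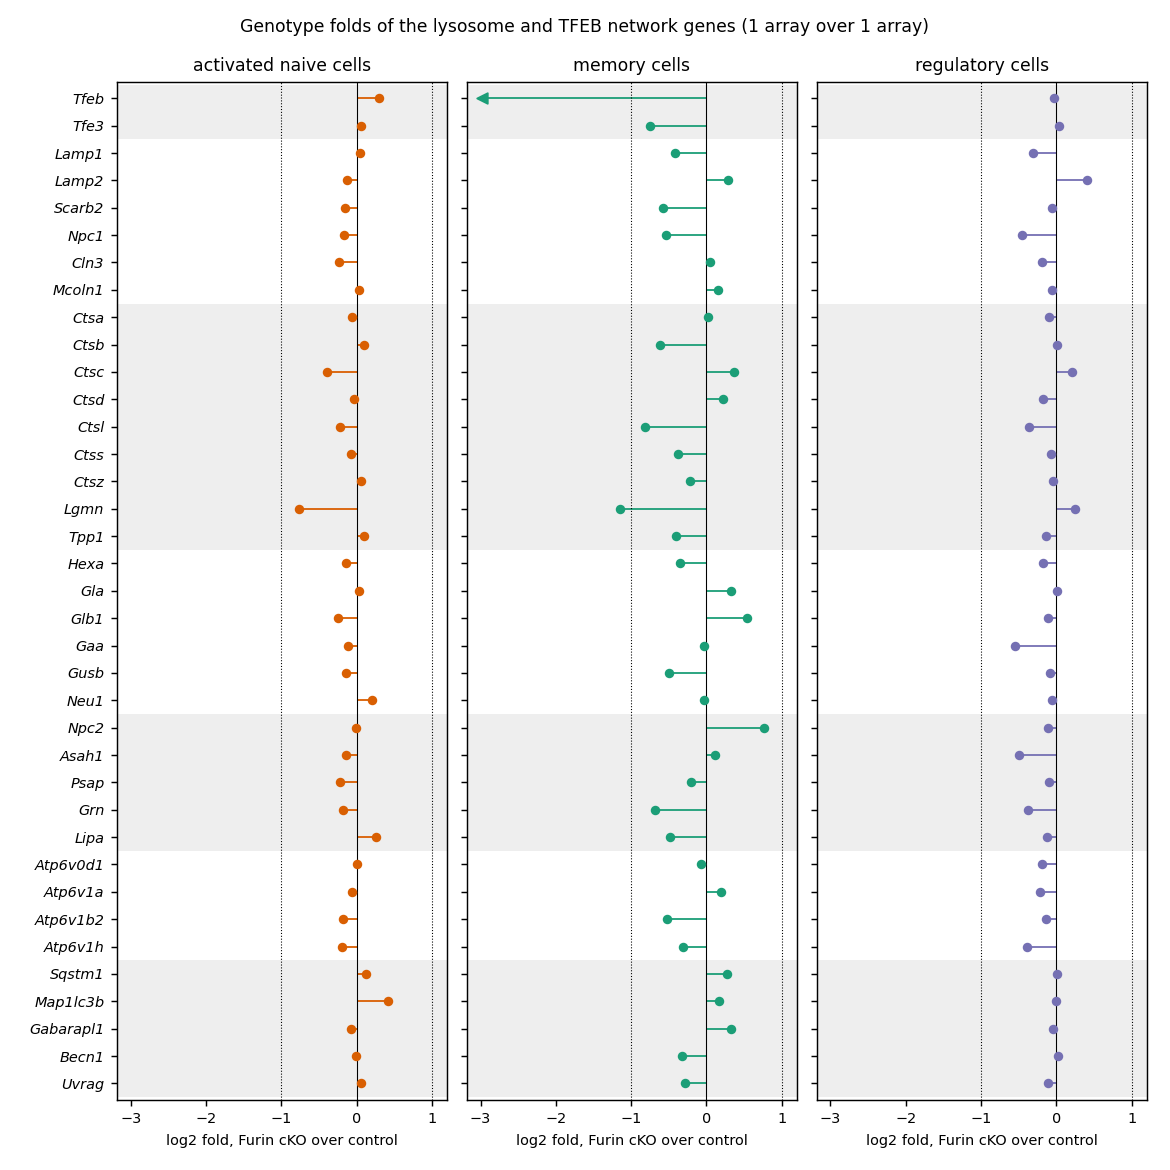
Log2 fold, Furin cKO over control by label (x axis) for the 37 genes (y axis) in activated, memory and regulatory cells, with dotted lines at 2-fold. The triangle marks a bound, for Tfeb in memory cells. Points lie close to 0 in activated and regulatory cells, where 34 and 30 of the 37 are within 1.25-fold, and spread in memory cells, where 17 are.

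Markers of other cells also differed between the 2 memory arrays. All 10 dendritic cell markers had a probe set, and they summed to 30498 on the array labelled Furin cKO and 62419 on the control array. The plasmacytoid marker Siglech read 1111 on the array labelled Furin cKO and 2943 on the control array, and H2-Ab1, a chain of MHC class II, read 3245.5 on the array labelled Furin cKO and 7618 on the control array. In activated cells Siglech, H2-Aa, Itgax and Flt3 were below the floor on both arrays, and the dendritic sums were 1487 (Furin cKO) and 1460 (control). The 9 macrophage and monocyte markers summed to 3026 (Furin cKO) and 3786 (control) in memory cells. Of these, 6 read lower and 3 higher on the array labelled Furin cKO. Cd68 read 543 on the array labelled Furin cKO and 1204 on the control array. Fcgr1 read 193.3 (Furin cKO) and 94 (control), and Lyz2 read 1026 (Furin cKO) and 917.1 (control). The 6 granulocyte markers moved the other way in memory cells, at 7235 (Furin cKO) and 743 (control), and the 5 T cell markers summed to 84529 (Furin cKO) and 76664 (control). B cell markers summed to 3875 (Furin cKO) and 2652 (control), with 4 higher and 2 lower on the array labelled Furin cKO. Plasma cell markers summed to 19327 (Furin cKO) and 12150 (control), with 3 higher and 2 lower. Among them Jchain read 3185 (Furin cKO) and 374 (control). Legumain, cathepsins and progranulin are also made by dendritic cells and macrophages. The part of such cells in the memory values of Tfeb, Lgmn, Ctsl, Ctsb and Grn was not tested.

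**Figure D5:**
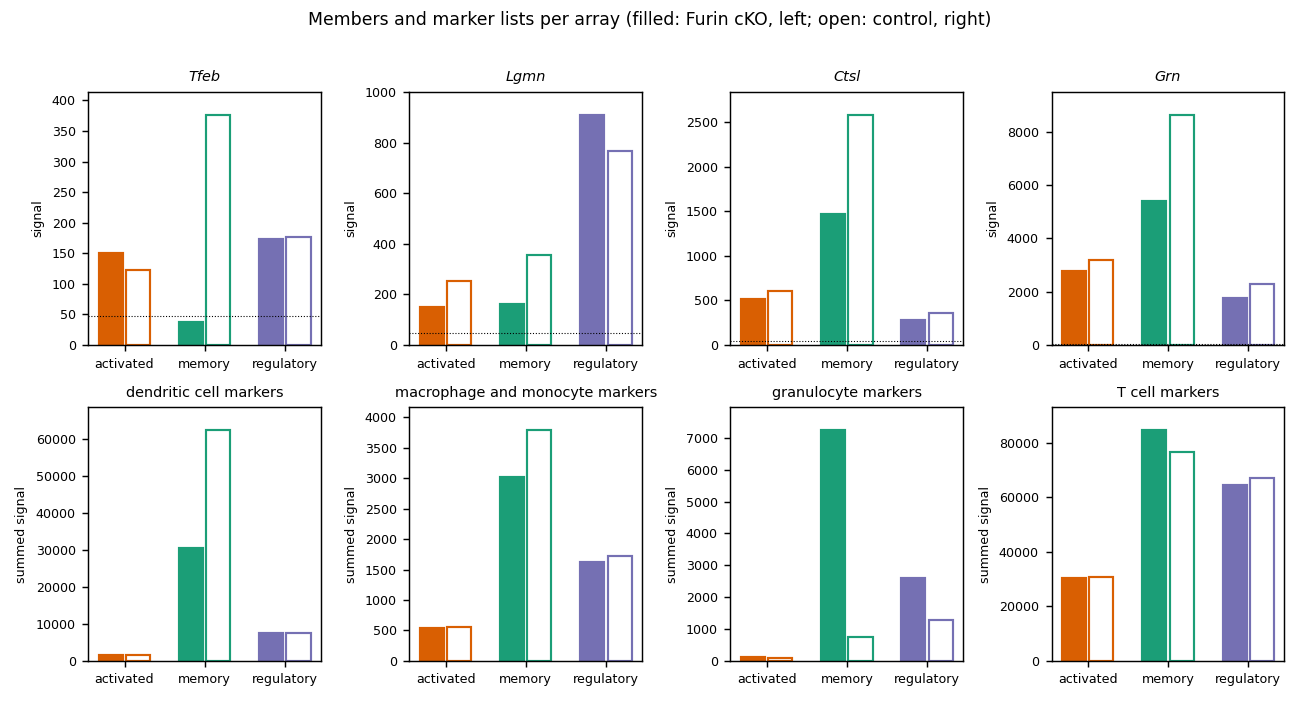
Signals of Tfeb, Lgmn, Ctsl and Grn (top, y axis from 0, dotted line at the floor of 47.6) and summed signals of 4 marker lists (bottom) on the 6 arrays, with arrays labelled Furin cKO filled and left, control arrays open and right. On the memory arrays the 4 genes and the dendritic cell markers (30498 against 62419) are lower on the filled bar, while the granulocyte markers (7235 against 743) are higher.

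Across populations, 11 of the 37 genes (29.7%) read lower on the array labelled Furin cKO in all 3, against 17% of the 10398 genes measured in all 3. They were Scarb2, Npc1, Ctsl, Ctss, Hexa, Gaa, Gusb, Psap, Grn, Atp6v1b2 and Atp6v1h. Gla and Sqstm1 read higher in all 3 (5.41%, against 11.6% of all genes). Without the memory arrays, whose Furin signal went against the label, 19 of the 37 (51.4%) read lower in both activated and regulatory cells, against 28.1% of 10525 genes, and 4 (10.8%) read higher, against 22.5%. These are counts of direction with no test. Of the genes with several probe sets, 11 of 20 in activated cells had at least 1 whose genotype fold had the opposite sign. In regulatory cells 11 of 23 did. With the mean of probe sets, regulatory cells gave 13 genes higher and 24 lower, in place of 8 and 29. Activated cells then gave 14 higher and 23 lower, as before. In Npc1 the log2 folds were -0.17 in activated, -0.53 in memory and -0.46 in regulatory cells, and in Ctsl they were -0.23, -0.82 and -0.37 in activated, memory and regulatory cells.

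The genotype term of the limma model called 0% of genes higher and 0% lower. At an unadjusted p under 0.05 it had 465 genes (2.96%), 3 of them in the network: Npc1 (-0.39 ± 0.13), Ctsl (-0.47 ± 0.16) and Grn (-0.41 ± 0.15), all lower on the arrays labelled Furin cKO. Their adjusted p was 0.825 in each case. Without any 1 of the activated or memory arrays 0 of the 37 were under an unadjusted 0.05, and without either regulatory array 1 was.

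The 11 genes with TCACGTG in a promoter were called in both directions. Of these 11, 2 were called higher and 4 lower in activated than in memory cells, and of the 20 other genes with a listed promoter 3 were called higher and 10 lower. In memory cells the median log2 genotype fold was 0.05 for the 11 genes and -0.32 for the 20. The order was the opposite in the other populations, at -0.07 for the 11 genes and -0.04 for the 20 in activated cells. In regulatory cells the medians were -0.18 for the 11 genes and -0.06 for the 20. No difference between the sets was tested. Tfeb, whose promoters held no CACGTG, is in the second set.

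Other genes of the pathway were read from lists of 146 genes, of which 138 had a probe set. Activated cells were called higher than memory cells in 19 and lower in 59 of the 137 tested, beside 17.5% and 27.2% of all genes, and against regulatory cells in 20 and 55. Regulatory over memory gave 0 higher and 2 lower. Among other hydrolases and cofactors, 3 of 27 were higher in activated than in memory cells, namely the serine carboxypeptidase Scpep1 (1.58), Aga (1.44) and Manba (0.74), and 15 were lower. Ctsw, a cathepsin of cytotoxic lymphocytes, read 74.5 in activated, 11799 in memory and 891 in regulatory cells on the arrays labelled Furin cKO, and 13 in activated, 11175 in memory and 724 in regulatory cells on the control arrays. Its activated signals were the lowest, 1 of the 2 being below the floor, and it was also called lower in regulatory than in memory cells at -3.84 ± 0.19 (adjusted p = 0.0483). Ctsh, cathepsin H, was below the floor on both activated arrays, which makes it at least 26.7-fold lower there than in memory cells (adjusted p = 0.00162), and it was the second gene called lower in regulatory than in memory cells, at -2.85 ± 0.20 (adjusted p = 0.0483). Acp5, the tartrate-resistant acid phosphatase, was lower in activated cells at -3.90 against memory and -3.82 against regulatory cells.

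Of 20 other lysosomal membrane proteins, 1 was higher in activated than in memory cells, Laptm4b at 1.54, and 10 were lower, with Cd68 (-2.41), the peptide transporter Abcb9 (-2.36) and the amino acid transporter Slc36a1 (-1.87) furthest. Of 13 other V-ATPase subunits 2 were higher and 5 lower. Atp6ap2, an accessory subunit, read 13258 in activated, 5175 in memory and 3156.5 in regulatory cells on the arrays labelled Furin cKO, and 15034 in activated, 4937 in memory and 2661 in regulatory cells on the control arrays, and stood higher in activated cells by 1.48 ± 0.17 (adjusted p = 0.00442) against memory cells. Atp6v0a2, of the V0 sector, was lower at -2.20 ± 0.14 (adjusted p = 0.00181). As among the listed subunits, V-ATPase genes were thus called in both directions.

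Regulators of TFEB and TFE3 gave 5 higher and 8 lower of 22 tested between activated and memory cells. The Ragulator complex, which anchors mTORC1 to the lysosome, was split between its genes. Lamtor4 read 216 in activated, 3065.5 in memory and 2966 in regulatory cells on the arrays labelled Furin cKO, and 225 in activated, 2967 in memory and 3197 in regulatory cells on the control arrays. It was lower in activated cells at -3.77 ± 0.14 (adjusted p = 0.00162) and Lamtor2 at -2.04 ± 0.16 (adjusted p = 0.00215), while Lamtor3 was higher at 1.26 ± 0.14 (adjusted p = 0.00383) and Lamtor1 at 0.97 ± 0.18 (adjusted p = 0.0148). Of 38 other autophagy genes 3 were higher and 16 lower. Gabarap, of the same family as Gabarapl1, read 1743 in activated, 9836 in memory and 8312 in regulatory cells on the arrays labelled Furin cKO, and 1757 in activated, 10174 in memory and 8193 in regulatory cells on the control arrays. It was lower in activated cells at -2.52 ± 0.14 (adjusted p = 0.00173) against memory cells, opposite to Gabarapl1, and Atg4b, the protease that trims this family, was higher at 1.07 ± 0.16 (adjusted p = 0.0089).

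Sorting to lysosomes gave 5 genes higher and 4 lower of 13. Gnptg, a subunit of the enzyme that starts the mannose 6-phosphate tag, read 94.1 in activated, 1009 in memory and 694 in regulatory cells on the arrays labelled Furin cKO, and 86.4 in activated, 1109 in memory and 633 in regulatory cells on the control arrays. It was lower in activated cells at -3.55 ± 0.15 (adjusted p = 0.00162), and Ap1m1, of the AP-1 adaptor, was higher by 1.53 ± 0.15 (adjusted p = 0.00334). Cystatin C (Cst3), an inhibitor of cysteine cathepsins, was the 1 cystatin of 4 that was called, lower at -1.85 ± 0.17 (adjusted p = 0.00282). In the genotype comparisons no other pathway gene reached 2-fold in activated or regulatory cells. In memory cells 3 of 136 measured were at least 2-fold lower on the array labelled Furin cKO and 0 were higher. Over all genes 3.56% were at least 2-fold lower there and 5.52% higher. The 3 were the heparan sulfate enzyme Naglu (209.6 against 502 on the control array), Cd68 (543 against 1204) and the autophagosome fusion protein Stx17 (252 against 540).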

How the data were processed

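Total RNA of CD4 T cells was hybridised to Affymetrix mouse arrays, 1 array for each of 3 populations in each of 2 genotypes. The deposited values are intensities, made by the authors with MAS5 per the submitters' processing notes. Each array's 2% trimmed mean of these intensities is 500.003, so the arrays had been scaled to a common mean. Probe sets were named through GEO's platform annotation, by which 34958 of 45101 have 1 gene symbol, 932 several and 9147 none. Signals below the pooled 40th percentile (47.6) were set to it before log2, and each gene took its probe set of highest mean log2 signal. Genotype differences are ratios of 1 array to 1 array, described at 2-fold without a test. Population differences come from limma 3.58.1 in R 4.3.3, with population and genotype as terms and 2 residual degrees of freedom, adjusted by Benjamini-Hochberg over 15707 genes. The fit was tested on simulated data.

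The genes and lists were chosen with earlier results of these data known. All 37 measured genes of the network were eligible to be named, as were the deleted gene, up to 3 genes each way per list and comparison with the largest called difference, those at least 2-fold between genotypes, and the marker genes. Promoters were printed for the first 3 genes with TCACGTGA in alphabetical order and for Tfeb, and the sites of the other 4 genes were added after their sequences were seen. Alternatives were quantile and cyclic loess normalization, floors at the 60th and 20th percentiles, averaging over all probe sets of a gene, a model with population alone and each array left out. Fits on only the 4 arrays of a comparison were added after seeing the data. The number of animals behind each array is unknown here.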

Additional observations from a re-analysis of the deposited data

Results flagged for a closer look

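Of the 37 genes, 11 read lower and 2 higher on the array labelled Furin cKO in all 3 populations, and the others differed in sign between populations. Given here are 2 of these, the genes at least 2-fold lower in memory cells, which read higher in another population. Tfeb had a log2 fold, Furin cKO over control, of 0.30 in activated cells, at 150.5 (Furin cKO) and 123 (control), and was at least 7.91-fold lower on the array labelled Furin cKO in memory cells. Lgmn had a log2 fold of 0.25 in regulatory cells, at 911.5 (Furin cKO) and 767 (control), and of -1.14 in memory cells. With 1 array a group, neither difference between populations was tested.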

How the results depend on the processing

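In activated cells, genes at least 2-fold higher and lower (39 and 38) became 66 higher under quantile normalization, 114 and 81 under cyclic loess, 17 and 9 with the 60th percentile floor, 469 and 447 with the 20th, and 25 and 19 with the mean of probe sets. In memory cells (783 and 505) they became 255 and 217 and then 2178 and 1506 with those floors, and 496 higher with the mean of probe sets. In regulatory cells (443 and 299) they became 273 higher under quantile normalization, 216 and 198 under loess, 38 and 39 and then 1711 and 1425 with the floors, and 258 and 180 with the mean of probe sets. Members of the network called lower in activated than in memory cells numbered 9 with the 20th percentile floor. In regulatory over memory (1 network gene, and 2 and 39 genes), 0 were called in the network under both normalizations, the 20th percentile floor, the mean of probe sets and the 4-array fit. Over all genes that comparison gave 0 and 0 under both normalizations and the 20th percentile floor, where the cause was not tested, 198 and 294 with the 60th, 256 and 377 with population alone, 4 higher with the mean of probe sets and 0 higher with the 4-array fit. The network then had 3 calls with the 60th percentile floor and with population alone. Leaving out an array gave 2 to 5 network genes higher and 5 to 12 lower in activated than in memory cells (812 to 1620 and 1481 to 2651 genes), 0 to 6 and 0 to 11 against regulatory cells (0 to 2483 and 0 to 3593 genes), and 0 calls in regulatory over memory. Of the 21 calls between activated and memory cells 12 were kept in at least 9 of 13 alternatives, and of the 19 against regulatory cells 10 were, with 0 kept in all. The sign turned for Tfeb in activated over memory without the memory array labelled Furin cKO (-1.54), and in activated over regulatory with the mean of probe sets for Npc2 (-0.93) and Atp6v1b2 (-0.12). No paired analysis was possible because each group holds 1 array. Signals near the floor limit what can be said of dim genes such as Tfeb, whose memory log2 fold was -1.38 with the 60th percentile floor.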
